A study of Homo sapiens with 75 samples.

Results

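KMO and 8 other enzymes of tryptophan and kynurenine breakdown were described in 5 cell lines of diffuse large B-cell lymphoma treated with R406. KMO was chosen by its response in these arrays: among genes lower in R406 in all 5 lines at 24 h, its mean difference was the lowest. The other members were taken for their place in the pathway. Of the 9 listed genes, 8 were on the arrays among 19536 genes in all, and 6 passed the filter on low levels, as did 11745 genes in all. AFMID, the formamidase that releases kynurenine, was not analysed here.

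R406 is an inhibitor of SYK, a tyrosine kinase that acts directly below the B-cell receptor. U2932, HBL1, LY7, DHL6 and DHL4 were each profiled in R406 at 6 and 24 h, in the vehicle DMSO at 6 and 24 h, and in DMSO at 0 h. Each of these 25 groups had 3 arrays with the replicate letters A, B and C, giving 75 arrays. Nothing in the labels ties the letters to separate cultures, so a p-value here reflects only how far these arrays spread, which may be technical. Each line is a single established line, and the labels give no dose for R406.

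Most tryptophan that is not used for protein is broken down through kynurenine. IDO1 and TDO2 open the indole ring of tryptophan, and AFMID turns the product into kynurenine. KMO hydroxylates kynurenine to 3-hydroxykynurenine, KYNU cleaves it to 3-hydroxyanthranilate, HAAO opens that ring, and QPRT converts the resulting quinolinate to a precursor of NAD. AADAT takes kynurenine off this route to kynurenate. IL4I1 is a secreted amino acid oxidase of antigen-presenting cells and B cells that acts mainly on phenylalanine and also on tryptophan. Kynurenine and products of IL4I1 can activate the aryl hydrocarbon receptor.

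KMO carried the lowest shared response and KYNU, the next enzyme of the main route, went both ways, so the 250 bases before their RefSeq gene starts are shown. Both are on the plus strand of GRCh38.p14, KMO at chr1:241532128-241532377 and KYNU at chr2:142877414-142877663. Capitals mark every match, on either strand, to 1 of 7 motifs. The motifs were AP-1 (TGANTCA), FOXO (GTAAACA), ETS (GGAAGT), IRF (GAANNGAAA), STAT (TTCNNNGAA), the aryl hydrocarbon receptor element XRE (GCGTG) and the E-box (CANNTG).
KMO: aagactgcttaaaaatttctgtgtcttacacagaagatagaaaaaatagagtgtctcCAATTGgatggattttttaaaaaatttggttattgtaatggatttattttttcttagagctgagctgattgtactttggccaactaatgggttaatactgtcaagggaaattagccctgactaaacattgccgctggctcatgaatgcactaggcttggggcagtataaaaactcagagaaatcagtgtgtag
KYNU: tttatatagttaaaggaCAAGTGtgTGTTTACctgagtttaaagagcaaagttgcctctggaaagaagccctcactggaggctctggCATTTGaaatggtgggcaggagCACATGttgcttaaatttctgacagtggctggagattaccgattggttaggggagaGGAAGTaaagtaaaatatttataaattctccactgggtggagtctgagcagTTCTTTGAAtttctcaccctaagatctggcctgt
The KMO window held 1 match, an E-box 193 bases before the start, and no match to the other 6 motifs. The KYNU window held 3 E-boxes and 1 match each to the FOXO, ETS and STAT motifs, with no overlap between them. Of 35116 promoter windows of this length, 61.8% held an E-box, 2.98% the FOXO motif, 19.5% the ETS motif and 6.57% the STAT motif. The shares for the motifs matched in neither window were 6.57% for AP-1, 6.56% for IRF and 32.2% for XRE. A match is a run of letters and was not tested as a binding site.

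The values are log2 levels made with RMA, a method that equalises the arrays and combines the probes of each gene, so 1 unit is a doubling. Levels of different genes were not set against each other, because each gene has its own probes. A gene was tested if at least 1 of its 25 group means exceeded 5.89, the table's median value. A difference is called where limma's p, adjusted by the Benjamini-Hochberg method over the 11745 genes, was under 0.05. Medians of single arrays ran from 5.84 to 5.97, and the lowest correlation between arrays of a group was 0.991. In bulk RNA, fewer cells of a kind and less RNA per cell cannot be told apart. Markers of B cells or other cells were not analysed here.

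TDO2 (ENSG00000151790_at) and AADAT (ENSG00000109576_at) stayed below the filter level in all 25 groups. TDO2 ran from 2.62 to 3.56 over the 75 arrays with a median of 2.96, and AADAT from 3.62 to 4.56 with a median of 3.96. They were not tested. IDO1 (ENSG00000131203_at) passed the filter through 4 groups, all of HBL1, and IL4I1 (ENSG00000104951_at) was above it in 5 groups, 3 of them HBL1 in DMSO. The other IL4I1 groups above it were DHL4 in DMSO at 6 h (5.94) and DHL6 in DMSO at 0 h (5.93). The difference between HBL1 and the other lines is therefore tied to how the gene was kept for IDO1, and in part for IL4I1. No count over the tested members is used as support. KYNU (ENSG00000115919_at), HAAO (ENSG00000162882_at) and QPRT (ENSG00000103485_at) were above the level in all 25 groups and KMO (ENSG00000117009_at) in 21.

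Before treatment KMO differed strongly among the lines. At 0 h in DMSO it was highest in DHL6, at 9.41, 9.43 and 9.47, followed by LY7, at 8.78, 8.79 and 8.86. U2932 had 7.48, 7.41 and 7.45, DHL4 had 7.18, 7.23 and 7.16, and HBL1 had 6.26, 6.12 and 6.18. No array of a line overlapped an array of the next line in this order. Each step was called, from DHL6 over LY7 (0.63 ± 0.07 SE, adjusted p = 7.33e-11) to the narrowest, U2932 over DHL4 (0.25 ± 0.07, adjusted p = 0.00204). With control probe sets for beta-actin and 28S as covariates, an alternative described last, that step was no longer called (-0.20 for DHL4 minus U2932, adjusted p = 0.462). DHL6 exceeded HBL1 by 3.25 on the log2 scale.

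KMO fell in R406 in all 5 lines at 6 h, on arrays that did not serve to choose it. In DHL4 the 3 arrays read 6.32, 6.63 and 6.52 in R406, against 7.59, 7.47 and 7.59 in DMSO. In DHL6 they read 7.65, 7.60 and 7.65 in R406, against 9.72, 9.79 and 9.80 in DMSO. In LY7 they read 6.42, 6.57 and 6.76 in R406, against 8.83, 8.84 and 8.93 in DMSO. All R406 arrays of these 3 lines lay below all DMSO arrays of their line. HBL1 had 4.94, 4.66 and 4.79 in R406, against 6.24, 5.97 and 6.09 in DMSO. U2932 had 5.39, 5.44 and 5.45 in R406, against 7.18, 7.30 and 7.44 in DMSO. In these lines too the groups were apart, and both R406 groups lay below the filter level of 5.89, a range in which array values tend to compress differences.

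**Figure D1:**
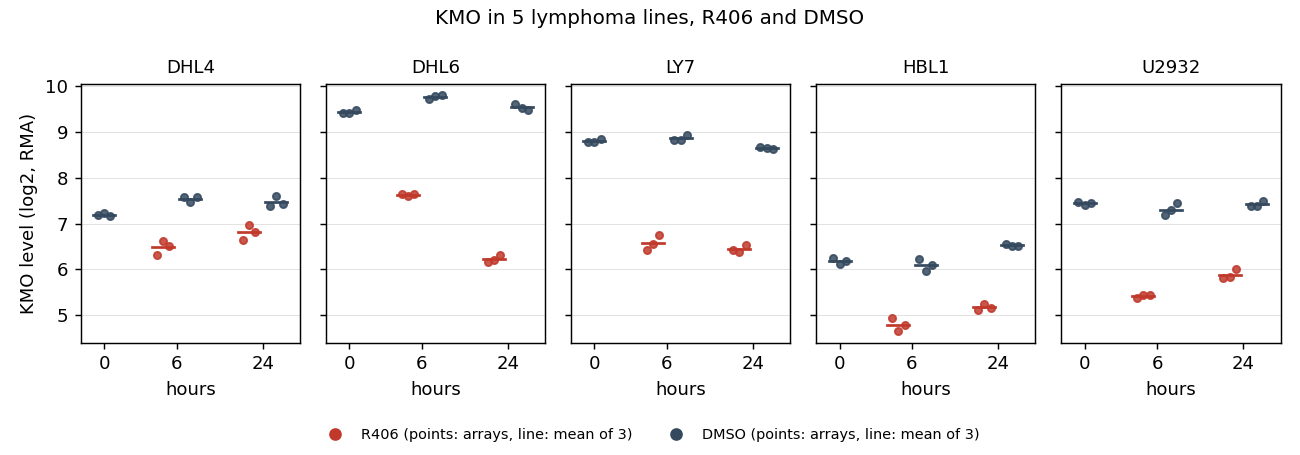
KMO level (log2, RMA) on the vertical axis in each of the 5 lines, against hours of treatment, with 1 point per array and a line at each group's mean of 3. In every line the red R406 points lie below the dark DMSO points at 6 and at 24 h. In DHL6 the R406 points lie lower at 24 h than at 6 h.

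The differences at 6 h were, from the lowest, -2.28 in LY7, -2.14 in DHL6, -1.88 in U2932, -1.30 in HBL1 and -1.06 in DHL4 (SE 0.07 each). Their adjusted p ran from 6.74e-33 in LY7 to 1.40e-18 in DHL4. KMO in R406 was thus at 20.6% of its DMSO level in LY7, the line with the lowest value, and at 48.0% in DHL4, the line with the highest. The mean of the 5 lines was -1.73 ± 0.03 (SE, adjusted p = 2.43e-44). Taking the 5 lines as the units, with an SD of 0.53, an exact two-sided sign-flip test gave p = 0.0625, the smallest that 5 lines allow. Among 11745 genes KMO had the 5th lowest difference in DHL6, the 6th in U2932, the 9th in LY7, the 44th in HBL1 and the 177th in DHL4. By the mean of the 5 lines it ranked 3rd from the lowest. No other gene was at or below -1.06, the KMO value of DHL4, in all 5 lines at once.

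The size of the fall at 6 h depended on the line. A moderated F-test for a difference among the 5 responses gave F = 51.1 (adjusted p = 2.27e-16). That test called 63.3% of all genes at 6 h. The 3 lines with the lowest values included DHL6 and LY7, which also started highest. DHL4 and U2932 started within 0.25 of each other and had responses of -1.06 and -1.88. With 5 lines no correlation with the starting level was computed.

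**Figure D2:**
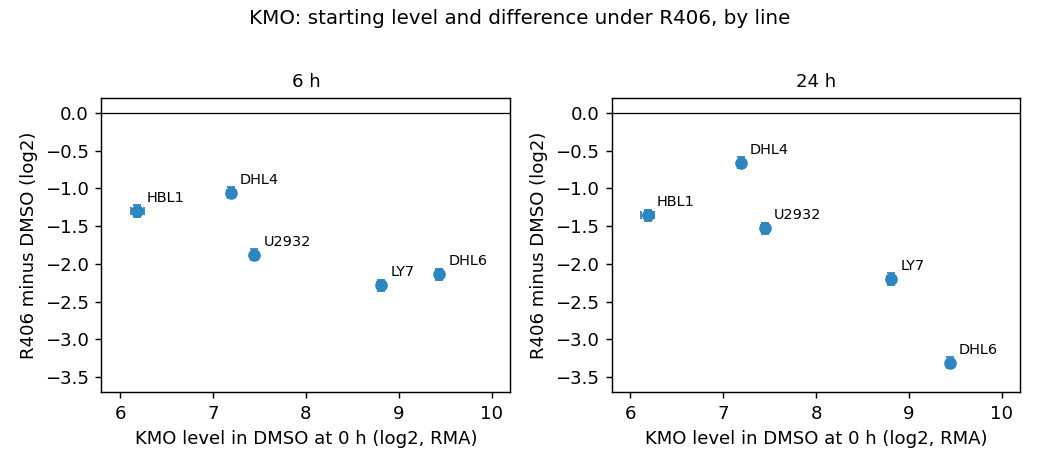
KMO level in DMSO at 0 h (log2, RMA, horizontal axis, bars are the SD of 3 arrays) against the R406 minus DMSO difference (log2, vertical axis, bars are the SE), 1 point per line, at 6 h on the left and 24 h on the right. LY7 and DHL6, at the right of each panel, have the lowest differences, and DHL4 the highest.

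At 24 h the values are those that chose KMO, and they are given without a test. DHL4 had 6.63, 6.97 and 6.82 in R406, against 7.38, 7.60 and 7.43 in DMSO. DHL6 had 6.17, 6.21 and 6.31 in R406, against 9.61, 9.53 and 9.48 in DMSO. LY7 had 6.43, 6.39 and 6.53 in R406, against 8.68, 8.65 and 8.62 in DMSO. DHL6, the line with the highest KMO in DMSO, was lower in R406 than LY7 or DHL4. HBL1 had 5.12, 5.24 and 5.16 in R406, against 6.56, 6.52 and 6.51 in DMSO. U2932 had 5.82, 5.83 and 6.02 in R406, against 7.38, 7.39 and 7.50 in DMSO. The groups were apart in every line, as at 6 h.

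The differences at 24 h were, from the lowest, -3.31 in DHL6, -2.20 in LY7, -1.53 in U2932, -1.36 in HBL1 and -0.66 in DHL4, with a mean of -1.81. Under the rule the next gene among the 2213 lower in all 5 lines had a mean of -1.63. Among all genes tested, without the condition on sign, the KMO mean ranked 3rd from the lowest. In DHL4 the KMO value held rank 1828 from the lowest, against rank 4 in DHL6, and 10 genes including KMO were at or below -0.66 in every line. From 6 to 24 h the difference moved by -1.17 in DHL6, -0.06 in HBL1, 0.08 in LY7, 0.35 in U2932 and 0.40 in DHL4. The difference was thus further from 0 at 24 h in DHL6 and nearer to 0 in DHL4 and U2932. With the 0 h arrays as the comparison at both times, the move was 0.38 in HBL1 and -0.13 in LY7, both opposite in sign, and with control probe sets as covariates it was 0.11 in U2932.

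KMO also moved in vehicle. In DHL4 it rose by 0.36 between 0 and 6 h in DMSO (adjusted p = 9.36e-05) and in DHL6 by 0.33 (adjusted p = 3.44e-04). LY7, at 0.06, HBL1, at -0.09, and U2932, at -0.14, did not pass the threshold. With control probe sets as covariates, both calls were lost (0.23 in DHL4, adjusted p = 0.397, and 0.26 in DHL6, adjusted p = 0.0642). At 24 h, given without a test, the difference from 0 h ran from -0.16 in LY7 to 0.34 in HBL1. Set against DMSO at 0 h, the KMO difference in DHL4 was -0.70 at 6 h and -0.38 at 24 h, and the other 4 lines ran from -3.21 to -1.01 over both times.

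No tested member other than KMO was called in all 5 lines at either time. KYNU at 24 h and IL4I1 at 6 h had negative differences in all 5 lines, of which 4 and 1 were called. Of the 6 tested members, the mean response at 6 h was called lower for 5 (KMO, KYNU, IDO1, QPRT and IL4I1) and not for HAAO. For IDO1, HBL1 was the only line called, at -0.56 at 6 h and -1.39 at 24 h. IL4I1 was lowest in HBL1, at -0.81 at 6 h and -0.70 at 24 h. The HAAO mean, -0.10 (adjusted p = 0.0526), was called lower after cyclic loess (adjusted p = 0.0426), against DMSO at 0 h (adjusted p = 0.0191), with control probe sets as covariates (adjusted p = 0.0095) and on leaving out any 1 of 15 arrays. That test called 61.3% of all genes. At 24 h, leaving KMO aside, 4 of 5 were called lower, with 73.6% of all genes called. The QPRT mean among them, -0.09 (adjusted p = 0.0182), lost its call after cyclic loess (adjusted p = 0.152), with array weights (adjusted p = 0.0521), against DMSO at 0 h, and without any 1 of 4 arrays. With control probe sets as covariates, 0 members were called in the 24 h mean. KYNU was then at 0.03 (adjusted p = 0.862), IDO1 at -0.46 (adjusted p = 0.218) and IL4I1 at -0.26 (adjusted p = 0.401). The medians of the members' means were -0.22 at 6 h and, without KMO, -0.25 at 24 h, against -0.01 over all genes at both times. At 6 h the median lies between IDO1 (-0.20) and IL4I1 (-0.23), and at 24 h it is the IL4I1 value. IDO1 was kept only through HBL1 and IL4I1 in part, and both were lowest there, so the medians are not read as a fall of the pathway. The shares called are read against a background in which most genes changed, and apart from KMO the lowest mean was that of KYNU at 24 h, -0.28.

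By line at 6 h, 3 of 6 members were called in DHL4, where 52.3% of all genes were. The count was also 3 of 6 in DHL6 (39.7% of genes), LY7 (47.9%) and HBL1 (22.3%), and 2 of 6 in U2932 (28.5%). At 24 h, without KMO, 2 of 5 were called in DHL4 (69.2% of genes) and DHL6 (60.7%), and 3 of 5 in LY7 (59.3%), HBL1 (43.7%) and U2932 (36.6%). The members' share was above that of all genes in some lines, most in HBL1 at 6 h, and below it in others, most in DHL4 at 24 h, and with so few members nothing is read from it. The counts by line include IDO1, which HBL1 alone brought past the filter, and its F-test among the 5 lines is left aside. At 6 h the responses of KMO, KYNU, QPRT and IL4I1 differed among the lines by that F-test, and that of HAAO did not. At 24 h, without KMO, those of KYNU, QPRT, IL4I1 and HAAO differed. The F-test called 63.3% of all genes at 6 h and 82.7% at 24 h.

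**Figure D3:**
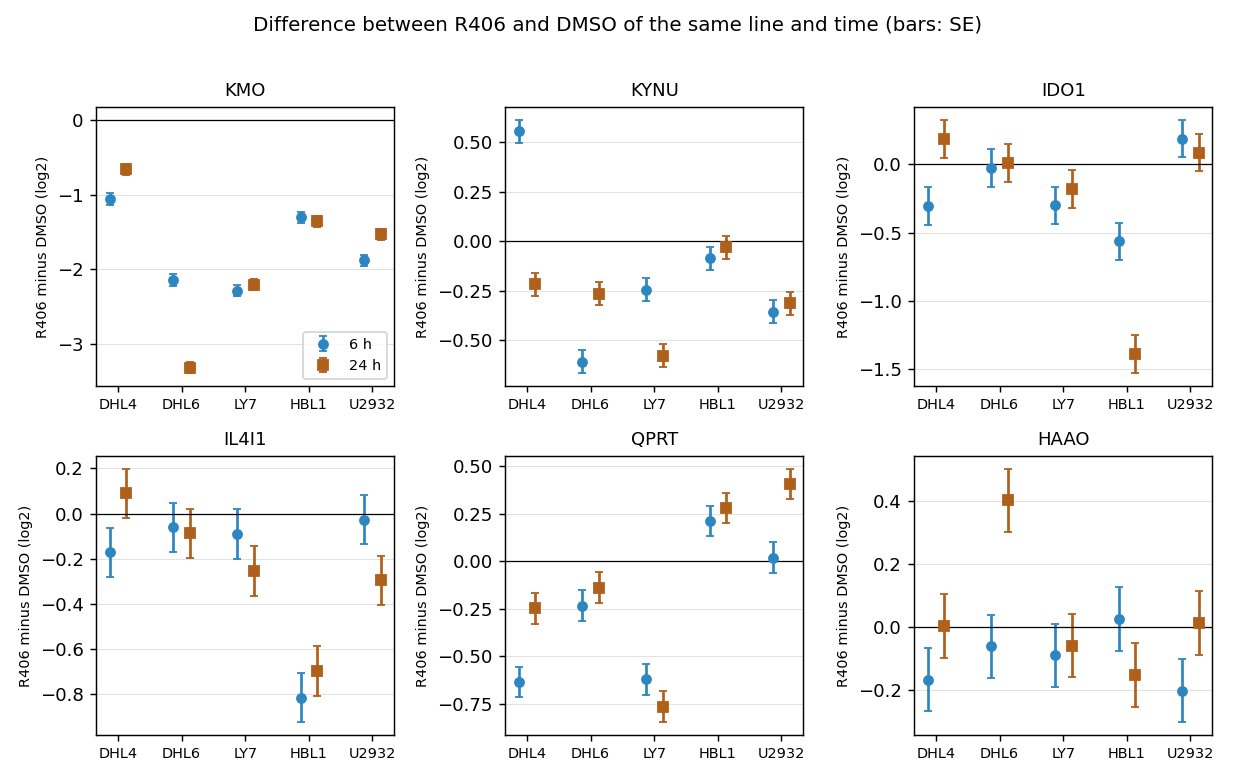
R406 minus DMSO difference (log2, vertical axis) of the 6 tested members in each line, at 6 h (circles) and 24 h (squares), with SE bars and a line at 0. KMO is below 0 in all lines at both times, KYNU is above 0 in DHL4 at 6 h, IDO1 and IL4I1 stand out in HBL1, and QPRT lies on both sides of 0.

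KYNU, the kynureninase that acts after KMO, went up in 1 line and down in 3 at 6 h. In DHL4 its level was 9.37, 9.39 and 9.31 in R406, against 8.77, 8.77 and 8.87 in DMSO. That difference of 0.55 ± 0.06 (SE) had an adjusted p of 4.21e-12. In DHL6 the level was 7.61, 7.68 and 7.55 in R406, against 8.17, 8.22 and 8.27 in DMSO, a difference of -0.61 (adjusted p = 5.54e-13). In both lines the groups did not overlap. U2932 had 7.02, 6.86 and 6.94 in R406, against 7.05, 7.40 and 7.42 in DMSO, and fell by 0.35 (adjusted p = 3.21e-06), with 1 DMSO array close to the R406 arrays. LY7 fell by 0.24 (adjusted p = 3.88e-04), while HBL1 had -0.09 (adjusted p = 0.329), and -0.39 against DMSO at 0 h, which was called (adjusted p = 2.88e-07).

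At 24 h the KYNU difference in DHL4 had turned negative. Its level was 9.23, 9.14 and 9.16 in R406, against 9.39, 9.38 and 9.41 in DMSO, a difference of -0.22 (adjusted p = 9.07e-04). The R406 level was still above the 0 h level of 8.88, 8.89 and 8.85, and DMSO had risen by 0.52 between 0 and 24 h (adjusted p = 1.30e-10). Against DMSO at 0 h the sign was the opposite, 0.31 (adjusted p = 6.63e-06), and after cyclic loess the call was lost, at -0.05 (adjusted p = 0.402). LY7 had 7.02, 6.98 and 6.93 in R406, against 7.67, 7.46 and 7.52 in DMSO at 24 h, a difference of -0.58 (adjusted p = 8.43e-13). DHL6 fell by 0.26 (adjusted p = 9.97e-05) and U2932 by 0.31 (adjusted p = 1.76e-05), and HBL1 had -0.03 (adjusted p = 0.71). The DHL6 call was lost against DMSO at 0 h, at -0.01.

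The change of the KYNU response between 6 and 24 h was itself tested. It was -0.77 in DHL4 (adjusted p = 1.15e-11), 0.34 in DHL6 (adjusted p = 7.02e-04) and -0.33 in LY7 (adjusted p = 0.00106), and it did not pass in HBL1 or U2932. Against DMSO at 0 h it was called in both, at 0.36 in HBL1 (adjusted p = 6.03e-07) and 0.46 in U2932 (adjusted p = 5.53e-09). Against DMSO of the same time, the mean KYNU response over lines was -0.15 at 6 h (adjusted p = 2.05e-06) and -0.28 at 24 h (adjusted p = 2.35e-14). With control probe sets as covariates, the 24 h mean was 0.03 and not called (adjusted p = 0.862). At 0 h the order of KYNU was DHL4 (8.87), HBL1 (8.33), DHL6 (8.20), LY7 (7.84) and U2932 (7.67), and every neighbour differed, HBL1 over DHL6 only just (0.13, adjusted p = 0.0487, lost in 19 of the 30 fits that leave out an array of these lines). LY7 over U2932 was lost without 0 h array B of U2932 (0.12, adjusted p = 0.109). DHL4, with the highest KYNU, was next to lowest in KMO.

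**Figure D4:**
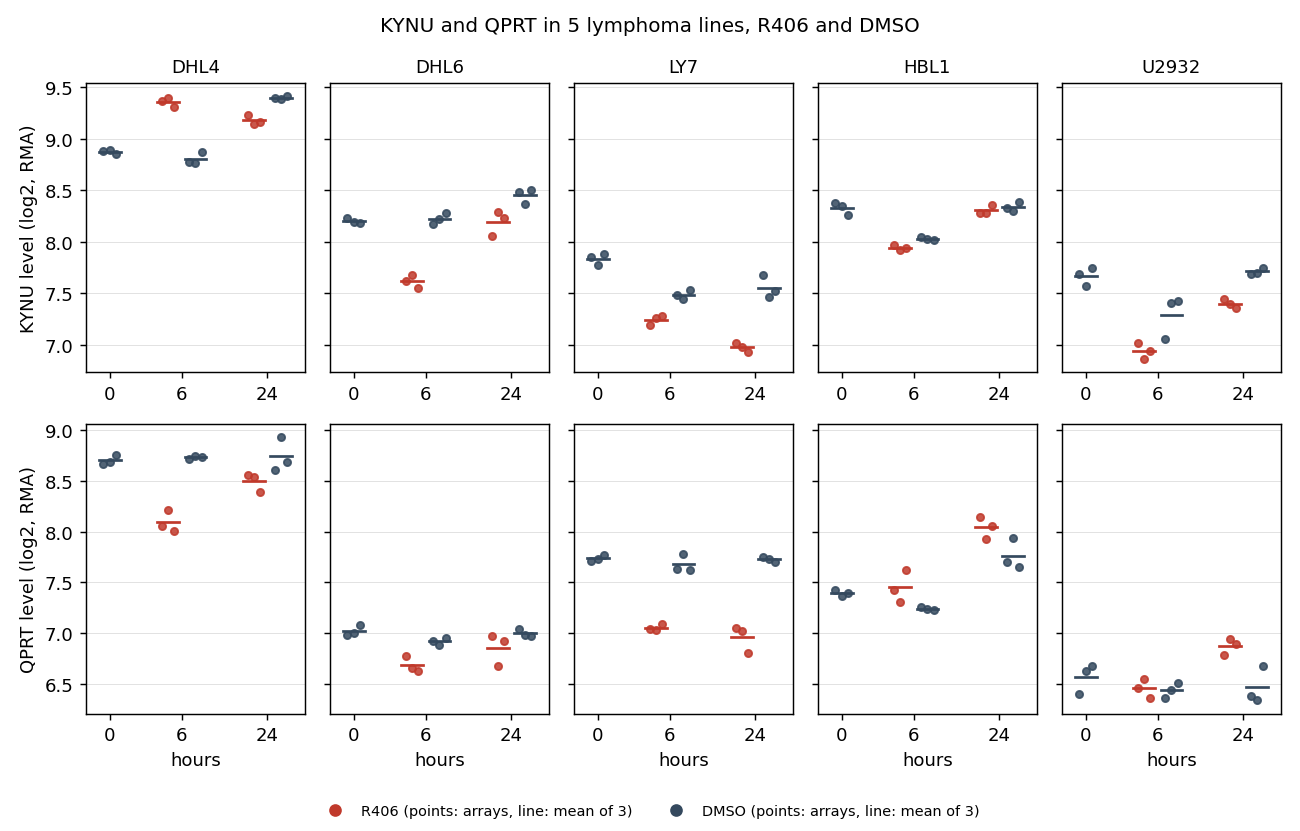
KYNU (upper row) and QPRT (lower row) level (log2, RMA) in each line against hours of treatment, with 1 point per array and a line at each mean of 3. In DHL4 the KYNU points of R406 lie above DMSO at 6 h and below it at 24 h, and QPRT points of R406 lie below DMSO in LY7 and above it in U2932 at 24 h.

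QPRT, which feeds quinolinate into NAD synthesis, fell in DHL4 and LY7 at both times and rose in U2932 at 24 h only. At 6 h DHL4 had 8.06, 8.21 and 8.01 in R406, against 8.71, 8.74 and 8.74 in DMSO, a difference of -0.64 (adjusted p = 1.05e-09). LY7 had 7.04, 7.03 and 7.09 in R406, against 7.63, 7.78 and 7.62 in DMSO, a difference of -0.62 (adjusted p = 2.88e-09). The arrays of R406 and DMSO were apart in both lines. With control probe sets as covariates, the LY7 call was lost (-0.38, adjusted p = 0.353). DHL6 fell by 0.23 (adjusted p = 0.0165), HBL1 had 0.21 (adjusted p = 0.0509) and U2932 had 0.02 (adjusted p = 0.892). The DHL6 call was lost without DMSO array C or R406 array B or C (-0.22 to -0.20, adjusted p up to 0.0764). The HBL1 value was called without R406 array B at 6 h (0.28, adjusted p = 0.0179), without 1 of 3 arrays of 24 h, and in 4 other settings.

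At 24 h LY7 had 7.05, 7.02 and 6.81 in R406, against 7.75, 7.73 and 7.70 in DMSO, a difference of -0.77 (adjusted p = 3.02e-12). U2932 had 6.79, 6.95 and 6.89 in R406, against 6.39, 6.34 and 6.68 in DMSO, a difference of 0.41 (adjusted p = 5.01e-05). LY7 and U2932 thus moved in opposite directions, each without overlap. With control probe sets as covariates, neither was called, with LY7 at -0.44 (adjusted p = 0.413) and U2932 at 0.04 (adjusted p = 0.965). HBL1 rose by 0.28 (adjusted p = 0.00341), but its groups overlapped, with 8.14, 7.93 and 8.05 in R406 and 7.70, 7.94 and 7.65 in DMSO. DHL4 fell by 0.25 (adjusted p = 0.00587), a call lost after cyclic loess (adjusted p = 0.0594) and without DMSO array B (-0.15) or R406 array C (-0.19), and DHL6 had -0.14 (adjusted p = 0.131).

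The QPRT response thus differed between the lines (F = 21.9 at 6 h, adjusted p = 6.68e-10, and F = 33.2 at 24 h, adjusted p = 3.03e-13). HBL1 and U2932, which are generally typed as activated B-cell-like, stood above DHL4, DHL6 and LY7, generally typed as germinal centre B-cell-like, by 0.61 at 6 h (adjusted p = 4.38e-10) and 0.73 at 24 h (adjusted p = 1.27e-12). That typing is background knowledge, and a class of so few lines cannot be told apart from the lines in it. This contrast called 44.3% of all genes at 6 h and 59.3% at 24 h, and 3 of 6 and, without KMO, 4 of 5 members. The count at 24 h includes IDO1, which HBL1 alone brought past the filter. For KMO at 6 h the contrast was 0.24 (adjusted p = 0.00317), with the opposite sign, -0.13, against DMSO at 0 h and no call with control probe sets as covariates (0.16, adjusted p = 0.131). At 0 h QPRT was highest in DHL4 (8.70), then LY7 (7.74), HBL1 (7.40), DHL6 (7.02) and U2932 (6.57), and all neighbours differed, LY7 over HBL1 no longer with control probe sets as covariates (0.08, adjusted p = 0.839).

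IDO1, which opens the route from tryptophan in most tissues outside the liver, stood above the other lines in HBL1, and it fell there in R406. At 0 h HBL1 had 7.04, 6.68 and 6.76, while the means were 5.33 in LY7, 5.31 in DHL6, 5.28 in DHL4 and 4.79 in U2932. These 4 lie below the filter level, and their order is given without a test. At 6 h HBL1 had 6.46, 6.44 and 6.43 in R406, against 7.09, 6.91 and 7.02 in DMSO. That difference of -0.56 ± 0.14 (SE) had an adjusted p of 0.00144.

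At 24 h IDO1 in HBL1 was 5.82, 5.88 and 5.96 in R406, against 7.18, 7.37 and 7.28 in DMSO. The difference was -1.39 ± 0.14 (SE, adjusted p = 1.34e-12), so that R406 arrays held 38.2% of the DMSO level and their mean of 5.89 had come down to the filter level. HBL1 in DMSO at 24 h was the group with the highest IDO1 mean, 7.28, and the filter kept IDO1 only through HBL1. The IDO1 p-values in HBL1 are thus tied to how the gene was kept. The difference at 24 h minus that at 6 h was -0.83 (adjusted p = 8.74e-04). IDO1 had risen by 0.45 in DMSO between 0 and 24 h (adjusted p = 0.0122), a call lost on leaving out array B or C at 0 h or array B at 24 h (0.38 to 0.41, adjusted p up to 0.0825). In the other 4 lines the IDO1 differences ran from -0.30 to 0.19 at both times and none was called, although LY7 was called against DMSO at 0 h, at -0.51 at both times. Leaving out 1 array also gave a call at 6 h in DHL4 (DMSO array C or R406 array C, -0.42 and -0.47) and in LY7 (DMSO array C or R406 array B, -0.44 and -0.43). IDO1 was below 5.89 in all groups of those lines.

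IL4I1 also stood highest in HBL1, with 6.81, 6.66 and 6.68 at 0 h and the other lines at means of 5.93 in DHL6, 5.87 in DHL4, 5.82 in U2932 and 5.61 in LY7. No difference between neighbours among those 4 was called, although the U2932 and LY7 arrays did not overlap and their difference was called without LY7 array C (-0.27 for LY7 minus U2932, adjusted p = 0.044). Of lines further apart, DHL6 over LY7 (0.32) and DHL4 over LY7 (0.26) were called, the latter lost without any 1 of 4 arrays. In HBL1, IL4I1 fell in R406 at both times. At 6 h the arrays read 5.82, 5.86 and 5.81 in R406, against 6.29, 6.96 and 6.68 in DMSO, a difference of -0.81 ± 0.11 (SE, adjusted p = 2.81e-08). At 24 h they read 5.56, 5.55 and 5.54 in R406, against 6.12, 6.32 and 6.29 in DMSO, a difference of -0.70 (adjusted p = 3.40e-07). In R406 the HBL1 level was thus in the range of the other lines. In DMSO it had fallen by 0.47 between 0 and 24 h (adjusted p = 7.22e-04).

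The IL4I1 response differed among the lines, with F at 9.13 at 6 h (adjusted p = 3.37e-05) and 7.23 at 24 h (adjusted p = 1.67e-04). No such F-test is given for IDO1, because HBL1 alone brought it past the filter. At 24 h IL4I1 was also called in U2932, at -0.30 (adjusted p = 0.0277), and in LY7, at -0.25 (adjusted p = 0.0405). The U2932 call was lost without DMSO array A or R406 array A or B (-0.29 to -0.22, adjusted p up to 0.169). The LY7 call was lost without any of the DMSO arrays or without R406 array A or B (-0.27 to -0.22, adjusted p up to 0.13), after cyclic loess, with no filter, and with the 0 h arrays in place of DMSO at 24 h (adjusted p from 0.0575 to 0.0621). With control probe sets as covariates, described last, the U2932 and LY7 calls were both lost. The remaining IL4I1 differences ran from -0.17 to 0.09 and none was called.

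**Figure D5:**
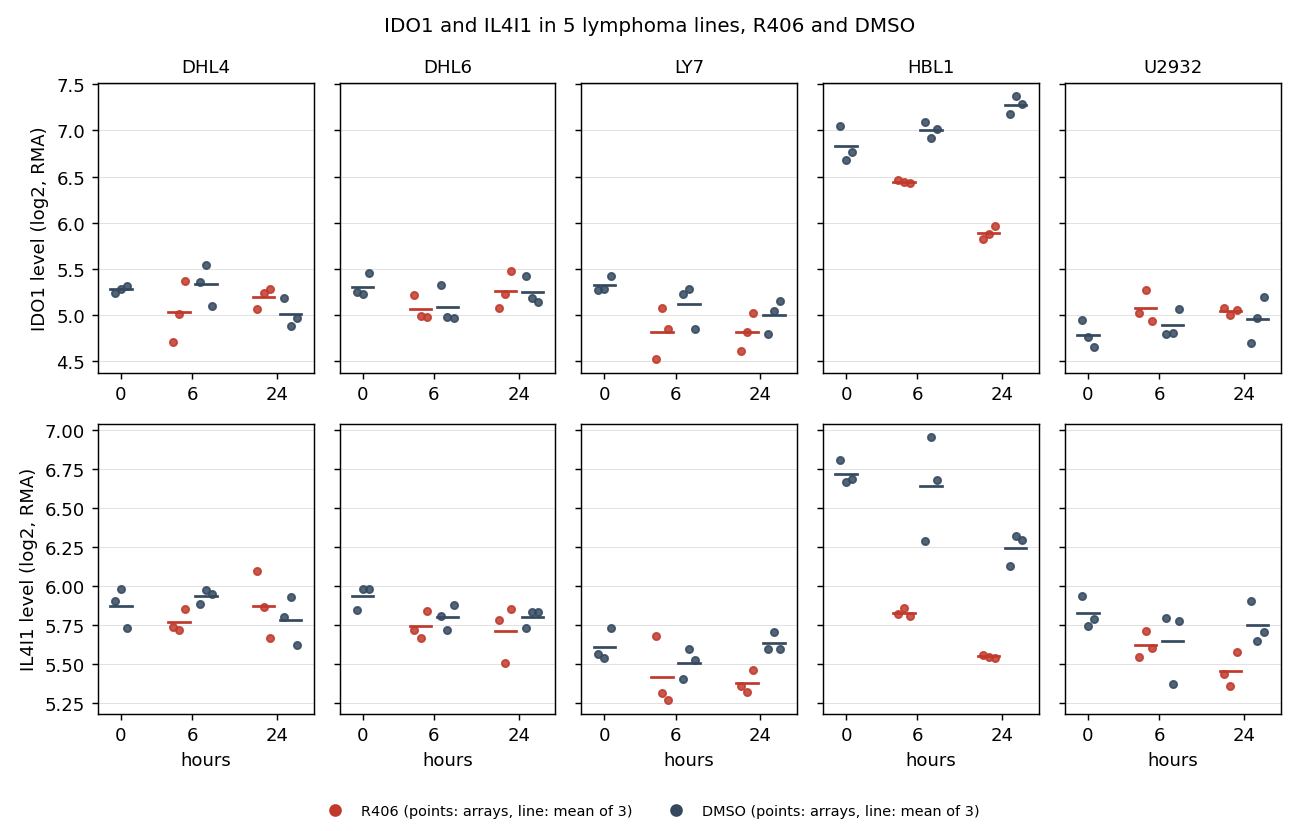
IDO1 (upper row) and IL4I1 (lower row) level (log2, RMA) in each line against hours of treatment, with 1 point per array and a line at each mean of 3. Only in HBL1 do the DMSO points of both genes stand clearly above the other lines, and there the R406 points lie below DMSO at 6 and 24 h.

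HAAO, the oxygenase that leads to quinolinate, was called in 1 of 10 comparisons. In DHL6 at 24 h it had 7.55, 7.14 and 7.51 in R406, against 6.95, 7.07 and 6.97 in DMSO. The difference was 0.40 ± 0.10 (SE, adjusted p = 4.95e-04), and 1 R406 array lay close to the DMSO arrays. Its other differences ran from -0.20 to 0.03 (that in U2932 at 6 h was called without DMSO array B, at -0.29, adjusted p = 0.0453), and no difference between neighbouring lines in HAAO at 0 h was called. Of lines further apart at 0 h, DHL4 over LY7 (0.28) and DHL4 over U2932 (0.25) were called, each lost without any 1 of 3 arrays. The F-test was called at 24 h (F = 4.45, adjusted p = 0.00491) and not at 6 h (adjusted p = 0.59). With control probe sets as covariates, the HAAO difference in DHL6 at 24 h was -0.41 and not called (adjusted p = 0.627). In that fit HAAO was called lower at 6 h in DHL4 (-0.33, adjusted p = 0.0418) and in U2932 (-0.35, adjusted p = 0.0414).

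For each time and line the tests above have a background of calls. The change of the response from 6 to 24 h was called for 22.9% of genes in U2932, 25.9% in HBL1, 32.6% in LY7, 41.3% in DHL6 and 56.3% in DHL4. Without KMO it was called for 3 of 5 members in DHL4 (KYNU, IDO1 and QPRT), 2 in DHL6 (KYNU and HAAO), and 1 each in LY7 (KYNU), HBL1 (IDO1) and U2932 (QPRT). The IDO1 call in DHL4, 0.49, was lost without any of 7 arrays (0.33 to 0.48) and in 6 other settings. Against DMSO at 0 h, KYNU was also called in HBL1 and U2932. In HBL1 so were QPRT (0.59, adjusted p = 1.48e-08) and IL4I1 (-0.28, adjusted p = 0.0309), while the HAAO call in DHL6 was lost (adjusted p = 0.0507). From 0 to 6 h in DMSO, 26.3% of genes changed in U2932, 23.4% in HBL1, 22.2% in LY7, 26.8% in DHL6 and 32.1% in DHL4, with 1 of 6 members in each line. That member was KMO in DHL4 and DHL6 and KYNU in the other 3 lines. From 0 to 24 h the shares were 18.1% in U2932, 23.1% in HBL1, 23.9% in LY7, 19.1% in DHL6 and 28.4% in DHL4. KYNU was then called in DHL4, DHL6 and LY7, IDO1, QPRT and IL4I1 in HBL1, and none of 5 members in U2932.

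Between lines at 0 h most genes differed. DHL4 differed from DHL6 in 63.3% of genes, from LY7 in 67.3%, from HBL1 in 71.3% and from U2932 in 69.4%. DHL6 differed from LY7 in 68.1%, from HBL1 in 68.5% and from U2932 in 66.8%, LY7 from HBL1 in 70.1% and from U2932 in 67%, and HBL1 from U2932 in 67.7%. Of the 6 members, 3 to 5 were called in each pair. These counts include IDO1 and IL4I1, whose differences between HBL1 and the other lines are tied, for IL4I1 in part, to how they were kept. Nothing is read from the counts.

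As a description, the other members were set beside KMO in 2 ways. Over the 25 group means, Pearson's r with KMO was 0.08 for KYNU, 0.07 for HAAO, -0.02 for QPRT, -0.10 for IL4I1 and -0.38 for IDO1. Over the 20 differences of a group mean from its line's 0 h mean, it was 0.53 for KYNU, 0.37 for QPRT, 0.26 for IL4I1, 0.25 for IDO1 and -0.17 for HAAO. The genes most like KMO by the measure over 20 differences were ENSG00000174123_at and ENSG00000132185_at, both at 0.897, and no name could be given to them. Their mean differences at 24 h were -1.36 and -1.08. By Spearman's rho a different gene came first, at 0.893. The 20 points share 5 lines and their 0 h arrays and include the 24 h values that chose KMO, so these values are a description.

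Among the control probe sets, those for beta-actin and 28S differed between R406 and DMSO at both times. For GAPDH, the excess of the 3-prime probe set changed little, by -0.06 to 0.02 at 6 h and -0.02 to 0.04 at 24 h. For beta-actin, the excess of the 3-prime over the 5-prime probe set, which can reflect RNA integrity or labelling, was higher in R406 than in DMSO in all 5 lines at 24 h, by 0.10 in HBL1 to 0.45 in DHL6. The 28S ribosomal probe set then differed by -1.54 in LY7 to 1.91 in U2932. At 6 h LY7, the line with the lowest KMO difference, stood apart with 0.39 for beta-actin and -1.12 for 28S. The other 4 lines had -0.01 to 0.10 for beta-actin and 0.19 in HBL1 to 0.74 in DHL6 for 28S. With both as covariates, an alternative added after seeing the data, KMO was still called lower in every line at 6 h, by values from -2.27 in DHL6 to -1.12 in DHL4 and with -2.01 in LY7, and was lower in every line at 24 h, by values from -3.57 in DHL6 to -0.78 in DHL4. In HBL1, IL4I1 remained called at both times. So did IDO1, whose p-values in that line are tied to how the gene was kept. The 24 h differences of KYNU in DHL4, DHL6 and U2932 and of HAAO in DHL6 changed sign in that fit, and QPRT was called in no line at 24 h and at 6 h no longer in LY7 (-0.38, adjusted p = 0.353) or DHL6 (adjusted p = 0.108). The covariates themselves differed between R406 and DMSO, and their part in these results was not tested further.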

How the data were processed

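RNA of the 75 samples was measured on Affymetrix arrays, 1 array per sample. Values in the deposited table are on the log2 scale, and the authors computed them by RMA according to the submitters' processing notes. The version of RMA, the probe annotation and the genome build behind the gene identifiers are not given in the sources used here. RMA makes the arrays' distributions equal, so a change of most transcripts in 1 direction would not show as a shift of a whole array. Array number limits the precision, and no count of molecules stands behind a value.

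The table has 19598 rows, of which 19536 are genes with an Ensembl identifier and 62 are control probe sets, which were left out of the tests. The 9 members, their names, the gene lists and the tests were chosen with earlier results of these data known. Group membership came from the sample labels. A linear model with 1 mean for each of the 25 groups was fitted with limma 3.58.1 in R 4.3.3 to all 75 arrays, with 50 residual degrees of freedom, on the 11745 genes whose highest group mean was above 5.89. Contrasts were two-sided with eBayes, and p-values were adjusted by Benjamini-Hochberg within each contrast, with a threshold of 0.05. KMO has no test in any contrast that uses R406 or DMSO at 24 h. The rule for named genes took the 9 members and the genes most like KMO, of which 2 identifiers are printed. The reference gene table carries no Ensembl identifiers, so other genes of the pathway and cell type markers were not analysed here. Promoter windows come from RefSeq (GRCh38.p14), which held 8 of the 9 members.

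The replicate letters were checked for pairing: of 30 pairs of same-letter arrays in each line, 3 to 10 had residuals correlated above 0.1, so the letters were not taken as pairs. The fit was tested on simulated data with 250 changed genes and recovered their sizes on average, although not every small change was called. Alternatives were cyclic loess, subtraction of array medians, no filter, a filter at the upper quartile, a trended robust prior, array weights, a replicate block, DMSO at 0 h as the reference, each line's own arrays, leaving out each array, and, added after seeing the data, control probe sets as covariates and a sign-flip test over lines.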

Additional observations from a re-analysis of the deposited data

Results flagged for a closer look

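Responses to R406 that differed among the 5 lines by the F-test are listed here, with those of IDO1 added as a description. Each is given by the gap between the highest and the lowest line on the log2 scale. For KMO at 6 h the gap was 1.22, between DHL4 and LY7. For KYNU it was 1.16 at 6 h, between DHL4 and DHL6, and 0.55 at 24 h, between HBL1 and LY7. For IDO1 it was 0.75 at 6 h, between U2932 and HBL1, and 1.57 at 24 h, between DHL4 and HBL1. Since HBL1 alone brought IDO1 past the filter, its gaps are a description and its F-test is not used. For QPRT it was 0.85 at 6 h, between HBL1 and DHL4, and 1.17 at 24 h, between U2932 and LY7. For IL4I1 it was 0.79 at both times, between U2932 and HBL1 at 6 h and between DHL4 and HBL1 at 24 h. For HAAO at 24 h it was 0.55, between DHL6 and HBL1. The F-test called 63.3% of all genes at 6 h and 82.7% at 24 h.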

How the results depend on the processing

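The mean KMO response at 6 h stayed between -1.75 and -1.63 in the settings run, at -1.73 with the replicate block. Of 36 called member responses to R406, 314 of 340 values in other settings and 1063 of 1080 with 1 array left out kept direction and call. The replicate block changed 3 member results, among them QPRT in HBL1 at 6 h, which became called (0.21, adjusted p = 0.0439). Against DMSO at 0 h the sign turned for the KMO class difference at 6 h (-0.13), KYNU in DHL4 at 24 h (0.31), the untested KMO values at 24 minus 6 h in HBL1 (0.38) and LY7 (-0.13), the KYNU mean at 24 minus 6 h (0.19) and IL4I1 in HBL1 at 24 minus 6 h (-0.28), and 1 member was called in DHL6 at 24 h. With the covariates, whose levels differ between R406 and DMSO, the sign turned for KYNU at 24 h in DHL4 (0.16), DHL6 (0.45), U2932 (0.43) and the mean (0.030), the KYNU mean at 24 minus 6 h (0.13), KYNU in DHL6 minus HBL1 at 0 h (0.22), and HAAO in DHL6 at 24 h (-0.41) and at 24 minus 6 h (-0.024). At 24 h that fit called 0 members in DHL4, DHL6, U2932 and the mean and 1 in LY7, and 9.4% of genes in U2932, 19.9% in LY7, 14.5% in DHL6, 41.3% in DHL4, 32.4% in the mean and, at 6 h, 17.9% in LY7. The causes were not tested. Cyclic loess called 0 members in DHL4 at 24 h. The upper-quartile filter tested 3 members and called 3 in the 6 h mean, 2 in the 24 h mean, 3 and 2 in the F-tests at 6 and 24 h, and 1 each in DHL6 and HBL1 at 24 h. Without a filter, over 19536 genes, the shares called were 16.3% in U2932, 12.2% in HBL1, 28.8% in LY7, 23.1% in DHL6, 31.9% in DHL4, 39.3% for the mean and 38.5% for the F-test at 6 h, and at 24 h 23.6% in U2932, 25.9% in HBL1 and 37.7% in LY7. Leaving out 1 array gave 1 to 2 members in DHL4 at 24 h.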
